A study of Mus musculus with 6 samples.

Results

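The genes described here lie in the proximal part of the MRL-derived segment of mouse chromosome 1, and their expression was compared between 2 strains in heat-exposed testis. Every non-control probe whose array annotation placed it at chr1:163170713-169999999 (mm9) was taken, except the 8 probes of Fmo genes, which left 95 genes with 167 probes of the 34741 genes and 55681 probes on the array. The members were chosen by position, with the Fmo genes left out by name, and earlier results of these data were known when this was done. Of the 95, 76 were genes, gene models or clones and 19 were regions annotated as long intergenic noncoding RNA (lincRNA). RNA came from the whole testis of males aged 3 months whose scrotum had been held once at 43 °C for 20 min, 10 days earlier. The control group was C57BL/6 (B6), with 3 arrays. The other group was B6.MRLc1-(D1Mit202–D1Mit403), here B6.MRLc1, also with 3 arrays, a congenic strain with MRL chromosome 1 between 67.97 and 81.63 cM on the B6 background. Both groups received the heat. Unheated testes were not analysed here, and the values compare strains rather than heat with no heat. Per the design text the testes came from 3 animals a strain, and an array was counted as 1 animal.

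In a congenic strain every gene inside the introgressed segment carries the donor's alleles, while nearly all genes outside it are the same as in the background strain. Such strains are used to tie a trait to a stretch of chromosome, and the genes inside the stretch are then the first to be compared. The proximal part of this segment holds genes with well-known roles in testis, among them Adcy10, the bicarbonate-sensitive soluble adenylyl cyclase that starts cAMP signalling in sperm, and Mael, which is needed to silence transposons in male germ cells. It also holds genes of membrane traffic, a run of selectin genes, and genes of T cell signalling.

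The arrays were one-colour 60-base arrays. In B6, 68.6% to 69.0% of spots were well above background, and in B6.MRLc1 it was 58.0% to 64.7%, with no spot saturated. Because each strain filled a row of the slide by itself, the effect of row and that of strain cannot be told apart. A level below is log2 of the signal over the 75th percentile of that array, and a difference is B6.MRLc1 minus B6 on that log2 scale. The markers of testis were present: all 15 spermatocyte markers, all 12 Sertoli cell markers and all 7 Leydig cell markers on the array gave a usable probe. Marker sums that did not overlap between the strains were those of round spermatids (7.98 to 11.9 in B6 and 3.49 to 4.38 in B6.MRLc1, in multiples of the 75th percentile), elongating spermatids (20.7 to 53.1 and 5.45 to 10.9), peritubular myoid cells (198.2 to 199.8 and 216.3 to 226.0), spermatogonia (30.4 to 32.07 and 32.13 to 34.4) and adipocytes (5.27 to 8.32 and 9.21 to 17.3). In whole tissue, fewer cells of a type and less RNA per cell cannot be told apart, and the part of these marker differences in the results below was not tested.

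The probes on which the main results turn are shown so that what each measured can be seen. The pairs below lie at one lincRNA locus between Tnfsf18 and Fasl and read opposite strands of the same bases (capitals mark the bases that both probes of a pair cover). The first pair lies at chr1:163528264-163528323 (mm9), where the reverse-strand and forward-strand probes are exact reverse complements over all 60 bases. The second pair shares 56 bases, at chr1:163527676-163527731. The single probe after them, at chr1:163527309-163527368 on the reverse strand, is the one that passed the test.
A_30_P01032551, reverse strand: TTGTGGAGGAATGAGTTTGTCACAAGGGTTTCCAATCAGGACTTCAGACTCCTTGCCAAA
A_30_P01029956, forward strand: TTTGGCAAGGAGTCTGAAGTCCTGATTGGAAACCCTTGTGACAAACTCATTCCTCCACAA
A_30_P01017790, reverse strand: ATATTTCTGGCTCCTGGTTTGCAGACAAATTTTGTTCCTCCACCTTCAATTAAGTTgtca
A_30_P01033274, forward strand: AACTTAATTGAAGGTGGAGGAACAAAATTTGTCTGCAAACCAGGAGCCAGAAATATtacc
A_30_P01026824, reverse strand: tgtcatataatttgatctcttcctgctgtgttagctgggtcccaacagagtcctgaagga

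For the protein-coding genes only the first 30 of the 60 bases of a probe are printed. They are given for Scyl3 and Dnm3, whose single probes passed the test, and for both probes of Vamp4, which gave unlike differences. The Scyl3 probe lies at chr1:165884912-165884971 on the forward strand and the Dnm3 probe at chr1:163920455-163920514 on the reverse strand (mm9). The Vamp4 probes lie at chr1:164519597-164519656 and chr1:164528962-164529021, both on the forward strand. MRL sequence was not analysed here.
Scyl3, A_51_P155747: tcatagggctttcgaacacaactgacttaa
Dnm3, A_52_P164286: attagagaacatgcaacatacaaaggggta
Vamp4, A_55_P2058992: aagcttatcggataatgccaccgctttcag
Vamp4, A_52_P525070: cttagtagtatgtcattattttagacctca

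Most proximal interval genes had much the same level in both strains. Of the 95 genes, 67 had a probe that stood well above background on 3 or more of the 6 arrays, and these gave 108 tested probes. The genes Scyl3 and Dnm3 and the reverse-strand lincRNA between Tnfsf18 and Fasl were lower in B6.MRLc1 testes, and no member was higher (limma fitted across all probes of the array, Benjamini-Hochberg adjusted p under 0.05). That is 3 of 67 genes lower, where 2.09% of the 25097 tested genes of the array were lower, and 0 of 67 higher, where 0.319% of the array was. At an unadjusted p under 0.05 there were 27 of the 108 probes, 25%, against 18.8% of probes on the array. The members' median difference was 0.01, their median absolute difference was 0.13, and the latter was 0.13 on the whole array too. For 75 of the 108 probes, 69.4%, the 95% confidence interval of the difference lay within 1.5-fold in both directions, and the share on the array was 70.6%. A difference of 2-fold or more was seen for 3 member probes, 2.78%, against 3.20% of probes on the array. They belonged to the reverse-strand lincRNA and to Adcy10. Leaving out any 1 of the 6 arrays ended each of the 3 calls. Without B6.MRLc1 array 3, Adcy10 was the single member called.

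Counting probes whose 3 levels in one strain all lay outside the 3 of the other gives a view that does not depend on the threshold for a call. It does depend on the filter for tested probes. All B6.MRLc1 levels were below all B6 levels for 23 of the 108 probes, 21.3%, against 12.9% of probes on the array. All were above for 14 probes, 13%, against 14.2% on the array. Probes of one gene share their transcript, so they are not separate observations: 5 of the 23 belong to the reverse-strand lincRNA and 3 to Creg1. At the level of genes, every tested probe lay apart and lower for 12 of the 67 genes, 17.9%, against 11.6% of tested genes on the array. Of these 12, 4 had 2 or more probes (the lincRNA, Creg1, BC055324 and Mettl18). The filter let in probes well above background in B6 alone, 4.63% of member probes and 3.14% on the array. Among those counted as lower here, Gpr161 and the lincRNA probes A_30_P01028357 and A_30_P01028378 entered in this way. These counts are therefore descriptions, and no test was made on them. Every tested probe lay apart and higher for 6 of the 67 genes, 8.96%, against 10.7% on the array, each with 1 probe (Slc19a2, Pigc, Blzf1, Kifap3, LOC552906 and A830054O07Rik).

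Along chromosome 1, the calls were sparse in this stretch and denser further on. In the 5 Mb before it, 3 of 45 tested genes were called, 6.67%. Among the members it was 3 of 67, 4.48%. In the next 6 Mb, 29 of 97 tested genes were called, 29.9%, and the median absolute difference there was 0.45. These shares are descriptions, and no test of the difference between stretches was made.

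**Figure D1:**
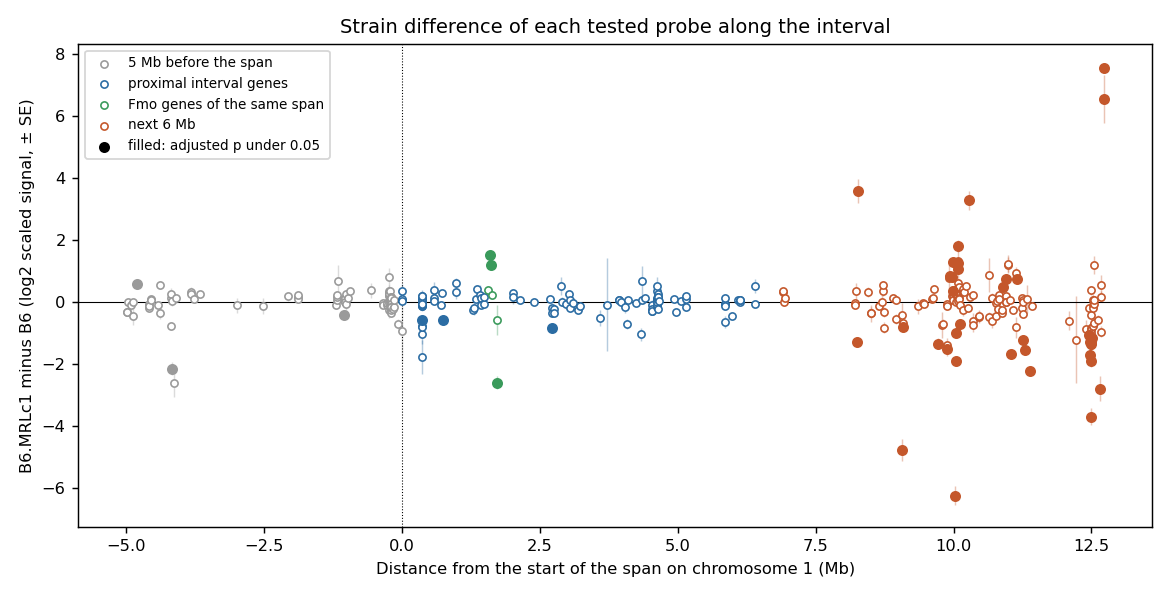
Strain difference (B6.MRLc1 minus B6, log2, ± SE of the fit) of each tested probe against its distance in Mb from the start of the span, with probes of the 5 Mb before, the 108 member probes, the Fmo genes and the next 6 Mb in separate colours and filled points for an adjusted p under 0.05. Member probes run from -1.78 to 0.69, while 36 of the 149 probes of the next 6 Mb are filled.

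Scyl3, a pseudokinase of the Golgi and of the leading edge of migrating cells, had the smallest adjusted p of any member. Its levels were -0.43, -0.46 and -0.49 on the B6 arrays and -1.46, -1.15 and -1.27 on the B6.MRLc1 arrays. The groups lay far apart, with the least bright B6 array above the brightest B6.MRLc1 array by more than the spread within either strain. The mean fell from -0.46 ± 0.03 to -1.29 ± 0.15 (SD, n = 3), a difference of -0.83 (SE 0.09, adjusted p = 0.026, limma), so that B6 testes had 1.78-fold the signal. Over the 18 alternatives the difference ran from -0.90 to -0.67, and it passed the test in 10 of them.

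BC055324 and Mettl18, the neighbours of Scyl3, pointed the same way with smaller differences that did not pass the test. BC055324, known as Firrm, encodes a partner of the Fignl1 ATPase in homologous recombination, and Mettl18 encodes a histidine methyltransferase. The BC055324 probe with the larger difference read -0.56, -0.46 and -0.41 in B6 and -0.89, -0.72 and -0.86 in B6.MRLc1. That difference was -0.35 (SE 0.08, adjusted p = 0.094, limma), and the gene's other probe gave -0.19 (SE 0.08). For Mettl18, the probe with the larger difference read -0.42, -0.38 and -0.26 in B6 and -0.83, -0.62 and -0.64 in B6.MRLc1, a difference of -0.34 (SE 0.08, adjusted p = 0.12, limma). The second Mettl18 probe gave -0.21 (SE 0.07). All 5 tested probes of the 3 genes, within 43.1 kb, had B6.MRLc1 levels below every B6 level. On the whole array, 12.9% of tested probes lay apart and lower in this way. Because probes of the same gene share their transcript, the 5 are not separate observations. The count is a description, and no test was made on it. In the RefSeq annotation, Scyl3 and BC055324 lie on opposite strands and their ends overlap, and the probes are of opposite strands accordingly.

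BC055324 and Mettl18 also start back to back, which is why the bases between their starts are shown. Of the 55 member genes with a promoter in the RefSeq table used (GRCm38.p6, windows from 250 bases before to 50 after a gene's start), 3 pairs have windows that overlap in this way. The BC055324 and Mettl18 windows share 192 bases, and 92 bases lie between the starts, at chr1:163994797-163994888 (GRCm38.p6, printed on the strand of Mettl18).
BC055324 to Mettl18: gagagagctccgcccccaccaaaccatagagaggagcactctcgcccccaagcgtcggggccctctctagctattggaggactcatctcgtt
In the other back-to-back pairs, Pigc differed by 0.29 (SE 0.10) and 4930558K02Rik by -0.09 (SE 0.09; 0.06 under normexp), while Blzf1 differed by 0.07 (SE 0.06) and Nme7 by -0.04 (SE 0.07).

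Dnm3, a dynamin that pinches off membrane vesicles and is expressed mainly in brain and testis, was lower in B6.MRLc1 testes. Its levels were -0.93, -0.71 and -0.70 in B6 and -1.33, -1.40 and -1.35 in B6.MRLc1. The B6.MRLc1 arrays lay close together, all under the lowest B6 array. The difference was -0.58 (SE 0.08, adjusted p = 0.038, limma), or 1.5-fold more signal in B6. No other dynamin passed the test: Dnm1 differed by 0.25 (SE 0.27), Dnm2 by 0.09 (SE 0.07) and Dnm1l by 0.23 (SE 0.06).

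Dnm3os, the noncoding RNA on the opposite strand within Dnm3 that carries the microRNAs miR-199a and miR-214, was on the other side of 0. Its brighter probe read -2.37, -2.24 and -1.88 in B6 and -1.38, -1.76 and -1.55 in B6.MRLc1. Every B6.MRLc1 level was above every B6 level, but the difference of 0.60 (SE 0.16) did not pass the test (adjusted p = 0.14, limma). A second probe gave 0.32 (SE 0.21) with groups that overlapped, and another was not well above background on any array.

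**Figure D2:**
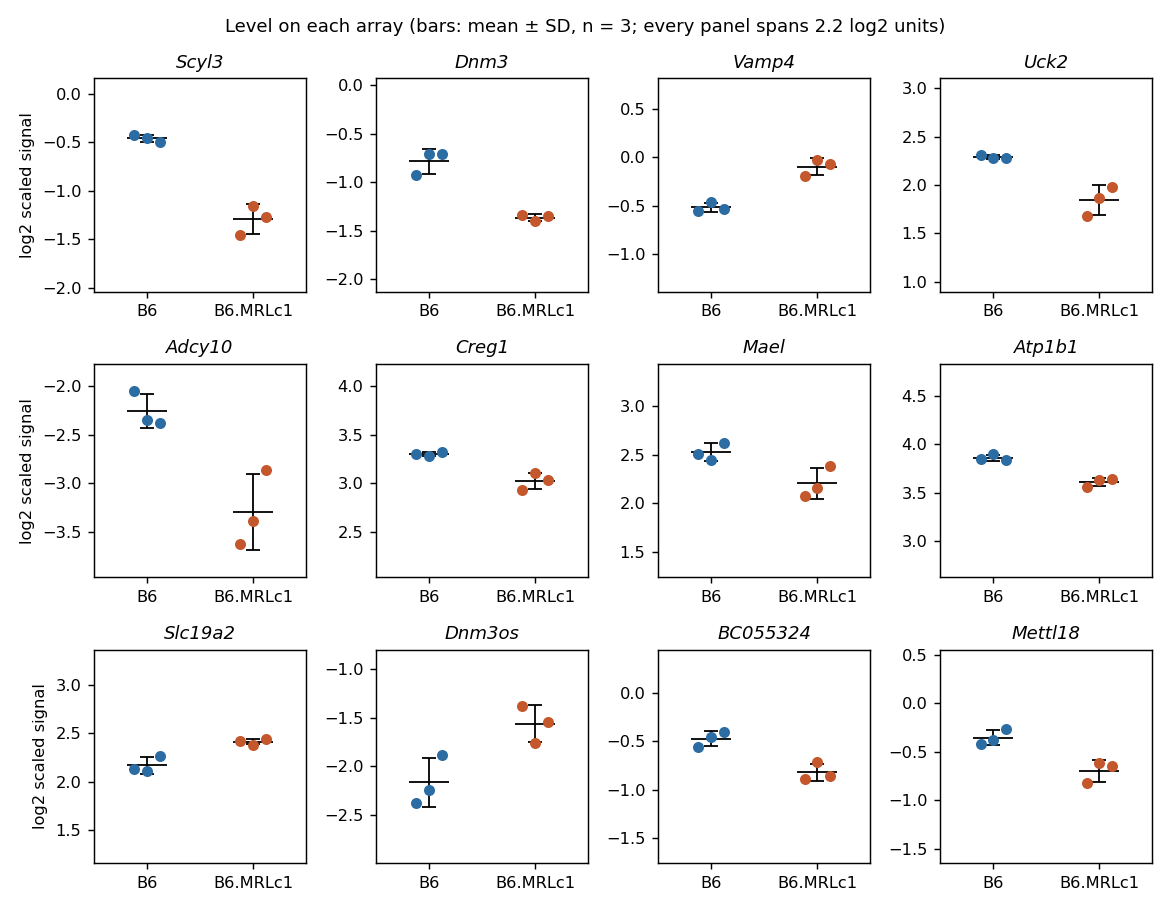
Level (log2 signal over the 75th percentile) on each of the 6 arrays for 1 probe of each of 12 members, with points for arrays and bars for the mean ± SD (n = 3); panels share their height in log2 units but not their position. The groups do not overlap in any of these panels, whose probes were picked for display. Other probes of Vamp4 and Dnm3os, not shown, had groups that overlapped. Scyl3 and Dnm3 passed the test.

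The lincRNA locus between Tnfsf18 and Fasl gave unlike differences on its strands with the processed signal, and these drew together under normexp. It is annotated as 5 overlapping regions, chr1:163508244-163586072 on each strand and 3 shorter forward regions inside it, and all 17 of their probes were tested. The 5 reverse-strand probes differed by -1.78 to -0.58, each with all B6.MRLc1 levels below all B6 levels. The 12 forward-strand probes, which cover the same stretch, differed by -0.14 to 0.21.

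The reverse-strand probe that passed the test, A_30_P01026824, read -3.88, -3.73 and -3.75 in B6 and -4.31, -4.40 and -4.40 in B6.MRLc1, and it was well above background on 2 of the 3 B6.MRLc1 arrays. It fell by 0.58 (SE 0.07, adjusted p = 0.030, limma). The brightest reverse-strand probe, A_30_P01017790, was well above background on all 6 arrays. Its levels were -2.33, -2.24 and -1.91 in B6 and -3.15, -2.94 and -2.70 in B6.MRLc1, a difference of -0.77 (SE 0.16) that did not pass (adjusted p = 0.084, limma). The forward-strand probe that shares 56 bases with it, A_30_P01033274, differed by 0.09 (SE 0.14), and its groups overlapped.

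At the exact reverse complements, the reverse-strand probe A_30_P01032551 differed by -0.81 (SE 0.25) and the forward-strand probe A_30_P01029956 by -0.06 (SE 0.07). The reverse-strand probe cleared background on all B6 arrays but on 1 B6.MRLc1 array only, and the forward-strand probe on all 6. The remaining reverse-strand probes, A_30_P01028357 and A_30_P01028378, were well above background on no B6.MRLc1 array. Their B6 signal was at least 2.08-fold and at least 1.08-fold higher on the processed-signal scale. Each such bound compares the B6 mean with, on each B6.MRLc1 array, the probe's own level or the array's detection floor, whichever was higher. The bounds carry no error.

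These reverse-strand signals were dim, and the size of their difference changed under normexp. The normexp run also added an offset of 50 to every spot, which by itself makes log2 differences of dim spots smaller. The parts of the correction and of the offset were not told apart. With normexp in place of the processed signal, the 5 reverse-strand differences ran from -0.45 to -0.07 and the 12 forward-strand ones from -0.10 to 0.20, so the ranges overlapped, and none passed the test. The B6.MRLc1 arrays had the higher detection floor. The lowest signal well above background stood at -5.76 to -5.68 in B6 and at -5.31 to -4.49 in B6.MRLc1. With every value under its array's floor raised to that floor, A_30_P01026824 differed by -0.58 (adjusted p = 0.035, limma), and the dimmer A_30_P01028357, A_30_P01032551 and A_30_P01028378 by -1.06, -0.28 and -0.11.

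**Figure D3:**
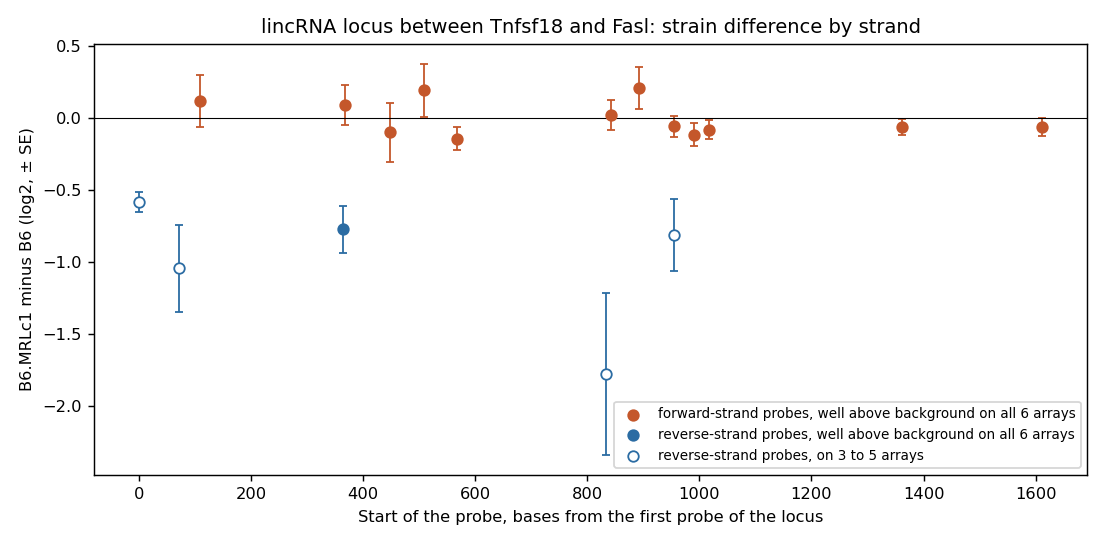
Strain difference (B6.MRLc1 minus B6, log2, ± SE) of the 17 probes of the lincRNA locus against the start of the probe, in bases from the first probe; colours give the strand, and open points were well above background on 3 to 5 arrays only. All 5 reverse-strand probes lie at -0.58 or below, and the 12 forward-strand probes lie between -0.14 and 0.21.

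The other membrane traffic and signalling genes, 14 with Dnm3 and Scyl3 and all measured, included no further call. Vamp4, a SNARE that returns vesicles to the trans-Golgi network, was the nearest to one on the higher side. Its probe A_52_P525070 read -0.55, -0.46 and -0.53 in B6 and -0.19, -0.03 and -0.07 in B6.MRLc1, with no overlap. The difference was 0.42 (SE 0.07, adjusted p = 0.054, limma), and it passed the test in 5 of the 18 alternatives. The gene's other probe, A_55_P2058992, differed by 0.10 (SE 0.06), and its groups overlapped.

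Creg1, a secreted glycoprotein that reaches lysosomes, was measured by 3 probes with like values. Their differences were -0.29, -0.28 and -0.23, each with SE 0.06 or 0.07 and with no overlap between strains, and none passed the test (smallest adjusted p = 0.096, limma). The probe A_55_P1963150 read 3.29, 3.28 and 3.32 in B6 and 2.93, 3.1 and 3.03 in B6.MRLc1. Pigc, an enzyme of GPI anchor synthesis, read -0.62, -0.44 and -0.30 in B6 and -0.10, -0.11 and -0.27 in B6.MRLc1, a difference of 0.29 (SE 0.10).

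Golgi and vesicle genes otherwise differed little. Sft2d2 gave 0.08 and 0.07, Blzf1 and Gorab 0.07 each, and Tmco1, a calcium channel of the endoplasmic reticulum, 0.08. Kifap3, the adaptor of the kinesin-2 motor that builds cilia, differed by 0.09 (SE 0.06), and the motor subunits Kif3a, Kif3b, Kif3c and Kif17 by -0.11 to 0.13 with no call. Suco, a protein of the rough endoplasmic reticulum, gave 0.12 and 0.39, the latter from a dim probe well above background on 2 arrays of each strain. Tiprl, an inhibitor of phosphatases of the PP2A type, Mpzl1, a surface glycoprotein, and Rcsd1, which binds actin-capping protein, differed by 0.01, 0.05 and 0.13.

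None of the 4 measured germ cell genes passed the test. Adcy10 read -2.05, -2.35 and -2.38 in B6 and -3.63, -3.40 and -2.87 in B6.MRLc1, so the groups did not overlap and B6.MRLc1 array 3 stood nearest to B6. The difference was -1.04 (SE 0.21, adjusted p = 0.081, limma), or 2.06-fold more signal in B6. Under normexp it was -0.45. A second Adcy10 probe cleared background on 2 B6 arrays and no B6.MRLc1 array, and the last on none.

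Mael, the transposon-silencing factor, read 2.51, 2.44 and 2.62 in B6 and 2.08, 2.16 and 2.38 in B6.MRLc1. Its difference was -0.32 (SE 0.10, adjusted p = 0.18, limma). Ccdc181, a microtubule-binding protein of the sperm tail, differed by -0.19 (SE 0.08), and Nme7, a nucleoside diphosphate kinase of cilia and the centrosome, by -0.04 (SE 0.07). Lrrc52, which encodes a subunit of the sperm potassium channel, was not well above background on any array.

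The partners of these proteins were read from lists set by function. Of 9 genes of sperm cAMP signalling and its channels, all measured, Catsper1 and Slc9c1, which form a sperm calcium channel and a sperm proton exchanger, were lower and Pde4d, a cAMP phosphodiesterase, was called higher by 1 of its probes. Both of the lower genes were well above background on no B6.MRLc1 array. Under normexp the Catsper1 difference shrank to -0.44 and the Slc9c1 difference to -0.32. Among 7 other NME family genes, Nme8 alone was lower, and it too was not well above background in B6.MRLc1. The Nme8 difference shrank to -0.09 under normexp. The medians of the lists were -0.14 and -0.16, against 0.02 over all probes tested. Beside these values, 6 of the 15 tested round spermatid markers and 2 of the 19 tested elongating spermatid markers were lower in B6.MRLc1, with median differences of -1.36 and -1.88. Under normexp these marker medians were -0.45 and -0.93. Some of the markers were not well above background on every B6.MRLc1 array. The round spermatid markers Spata19, Catsper3 and Izumo1 and the elongating spermatid marker Cylc1 gave no usable probe. The part of these spermatid markers in the Adcy10 and Mael values was not tested.

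The 7 genes of metabolism and transport were all measured and none was called. Uck2, which phosphorylates uridine and cytidine, came nearest: it read 2.31, 2.28 and 2.27 in B6 and 1.68, 1.87 and 1.98 in B6.MRLc1. The B6 arrays were almost equal and all above the B6.MRLc1 arrays, and the difference was -0.45 (SE 0.09, adjusted p = 0.077, limma). It passed the test in 2 of the 18 alternatives.

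Atp1b1, the beta subunit of the sodium-potassium pump, read 3.85, 3.90 and 3.84 in B6 and 3.56, 3.63 and 3.64 in B6.MRLc1, a difference of -0.25 (SE 0.06, adjusted p = 0.10, limma). Atp1a4, the sperm alpha subunit of the pump, differed by 1.19 (SE 0.25, adjusted p = 0.085, limma). Slc19a2, the high-affinity thiamine transporter, read 2.13, 2.11 and 2.27 in B6 and 2.42, 2.38 and 2.44 in B6.MRLc1, a difference of 0.25 (SE 0.07).

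The metabolic genes of the mitochondrion and of redox control were close to 0. Mpc2, a subunit of the mitochondrial pyruvate carrier, differed by -0.03 (SE 0.05), and its partner Mpc1 on chromosome 17 by -0.03 (SE 0.09). Aldh9a1, an aldehyde dehydrogenase of carnitine synthesis, differed by -0.01 (SE 0.07), and the 2 probes of Mgst3, a microsomal glutathione transferase, by 0.05 and 0.08. Prdx6, a peroxiredoxin that also has phospholipase activity, was among the brightest members. Its probe A_55_P2103561 read 5.92, 5.99 and 6.09 in B6 and 6.11, 6.02 and 6.10 in B6.MRLc1. The 3 bright Prdx6 probes differed by 0.04 to 0.09 and the dim one by 0.36 (SE 0.22), and Prdx1 to Prdx5 differed by -0.10 to 0.07 with no call.

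Eef1aknmt, a methyltransferase that modifies translation elongation factor 1 alpha, did not pass the test with either of its probes. The brighter probe read -1.32, -1.38 and -1.29 in B6 and -1.55, -1.65 and -1.54 in B6.MRLc1, a difference of -0.25 (SE 0.06, adjusted p = 0.12, limma), and the dimmer probe gave -0.18 (SE 0.24), which was 0.02 under normexp and ran from -0.42 to 0.04 when 1 array was left out. Mettl11b, an N-terminal methyltransferase, was not well above background on any array.

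Transcription regulators included 8 members, of which 6 were measured and none called. Prrx1, a homeobox factor of mesenchyme, differed by 0.29 (SE 0.11) and 0.16 (SE 0.21). Pou2f1, the octamer-binding factor, differed by 0.11 and 0.04, Tada1, a subunit of the SAGA coactivator, by 0.09, and Dcaf6, a receptor of a ubiquitin ligase that binds nuclear receptors, by 0.06. Pogk, a transposase-derived protein with a KRAB domain, had a bright probe at 0.19 (SE 0.07) and a dim one at -0.16 (SE 0.12). Lmx1a and Tbx19 gave no usable probe.

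Rxrg, a retinoid X receptor, is the named gene whose probes disagreed. The bright probe A_55_P2044359 read 1.61, 1.37 and 1.32 in B6 and 1.47, 1.39 and 1.25 in B6.MRLc1, a difference of -0.06 (SE 0.11) with groups that overlapped. A dim probe just downstream, A_51_P513311, read -4.87, -4.21 and -4.28 in B6 and -4.16, -3.65 and -4.0 in B6.MRLc1, with no overlap and a difference of 0.52 (SE 0.22). Neither passed the test, so no direction is given for Rxrg. The other receptors Rxra and Rxrb differed by -0.25 (SE 0.12) and -0.02 (SE 0.11).

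Genes of T cells, selectins and clotting were mostly below detection. Of 10 such members 3 were measured. Those with no usable probe included Tnfsf4, Tnfsf18 and Fasl (TNF family ligands), Sele (a selectin), Xcl1 (a chemokine) and Cd247 (a chain of the T cell receptor complex). The measured 3 differed little: Selp, the selectin of platelets and endothelium, by 0.01 (SE 0.14), F5, clotting factor V, by -0.07 (SE 0.14), and Gpa33, an epithelial surface antigen, by 0.10 (SE 0.07). Selp read -3.99, -3.82 and -4.25 in B6 and -3.97, -3.88 and -4.18 in B6.MRLc1, near the floor of the arrays. Of 11 T and NK cell markers 8 were measured, with none called and a summed level of 4.42 to 4.89 in B6 and 4.61 to 5.08 in B6.MRLc1. All 10 endothelial markers were measured and none was called. The 5 genes for selectin ligands and the enzymes that make them differed by -0.43 to -0.08, with no call.

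Matrix and surface genes gave 4 measured members and no call. Myoc, a secreted glycoprotein, differed by 0.22 (SE 0.32), and Ildr2, a membrane protein of the endoplasmic reticulum, by 0.02 (SE 0.08). Gpr161, a receptor of the primary cilium that restrains Hedgehog signalling, cleared background on all B6 arrays and no B6.MRLc1 array. It read -4.88, -4.84 and -5.00 in B6 and -5.89, -5.27 and -5.70 in B6.MRLc1. The bound, set as for the lincRNA probes and without an error, was 1.02-fold more B6 signal on the processed-signal scale. The fitted difference of -0.71 did not pass the test (SE 0.17, adjusted p = 0.11, limma), and normexp gave 0.02. Dpt, dermatopontin, a collagen-binding matrix protein, also cleared background in B6 alone, but its levels overlapped: -4.34, -4.32 and -5.15 in B6 and -4.89, -5.13 and -5.36 in B6.MRLc1. Its fitted difference was -0.53 (SE 0.26), from -0.80 to -0.38 when 1 array was left out, and -0.01 under normexp.

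The remaining 12 measured lincRNA regions, with 32 tested probes, gave no call. Their differences ran from -0.21 to 0.69 with a median of 0.02, and the smallest adjusted p was 0.37 (limma). The value of 0.69 (SE 0.48) came from chr1:167515313-167516122 on the forward strand, which read -4.44, -4.75 and -3.27 in B6 and -3.97, -2.75 and -3.65 in B6.MRLc1, with broad overlap. A second locus probed on both strands, chr1:167797581-167803031, gave 7 reverse-strand probes at -0.10 to 0.35 and 1 tested forward-strand probe at 0.53 (SE 0.28), of the 10 placed there. In 6 regions no probe could be tested.

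Among members with less certain roles, Fam78b showed the widest gap. It read -1.51, -1.64 and -2.18 in B6 and -2.34, -2.29 and -2.62 in B6.MRLc1, and the difference of -0.64 (SE 0.20) did not pass (adjusted p = 0.17, limma). Prrc2c, an RNA-binding protein of stress granules, differed by -0.09 (SE 0.06). The 10 other clones, gene models and unnamed probes that were tested differed by -0.11 to 0.51. The clone 1700029M03Rik could not be measured in any useful sense: it read -4.15, -5.68 and -6.61 in B6 and -6.78, -2.30 and -7.60 in B6.MRLc1 (SE of the difference 1.49). Of the 23 members in this group 11 gave no usable probe, among them Dusp27, Mroh9, Gm4847 and Gm10176.

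Probes of the same gene mostly gave like values. In 22 genes 2 or more probes were tested, and the median range of the differences within a gene was 0.26. In 9 of these genes the probes lay on both sides of 0. By a rule that asks for opposite signs more than 0.5 apart or any gap of more than 1, 2 genes disagreed: Rxrg, and the reverse-strand lincRNA between Tnfsf18 and Fasl, whose 5 probes were all below 0 but spread over 1.20.

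**Figure D4:**
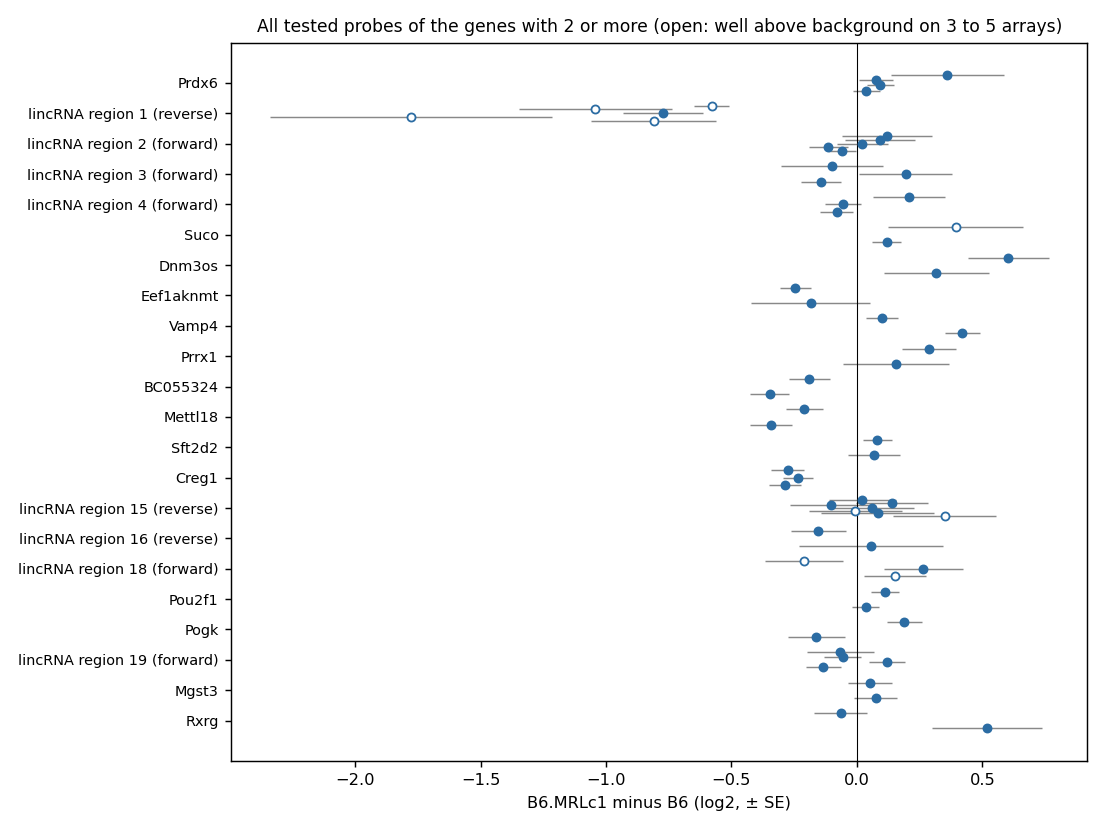
Strain difference (B6.MRLc1 minus B6, log2, ± SE) of every tested probe of the 22 members with 2 or more, in chromosome order; lincRNA regions are numbered by position among the 19, and open points were well above background on 3 to 5 arrays only. The probes of Creg1, BC055324, Mettl18 and lincRNA region 1 all lie below 0, and those of Rxrg and Pogk on both sides.

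How far a probe stood above background went with the size of its difference. The 94 probes well above background on all 6 arrays had a median absolute difference of 0.12, and 0.10 under normexp. The other 14 had 0.37, and 0.11 under normexp, and 6 of these 14 changed sign. No member probe reached 2-fold under normexp. It was run with an offset of 50, which by itself makes log2 differences of dim probes smaller. The share of probes well above background on all 3 B6 arrays and on no B6.MRLc1 array was 4.63% among members (5 probes) and 3.14% on the array.

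**Figure D5:**
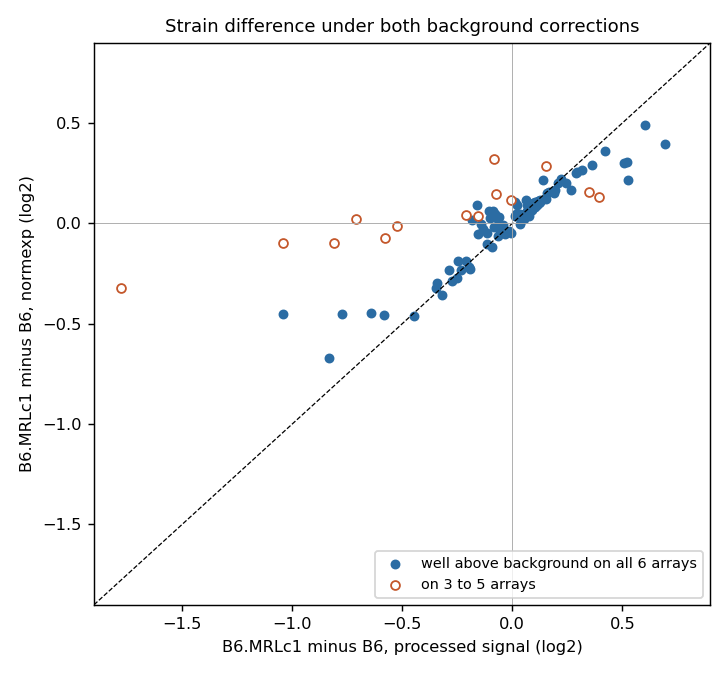
Strain difference (log2) of the 108 member probes with the processed signal (x axis) and with normexp background correction (y axis); filled points were well above background on all 6 arrays, open points on 3 to 5, and the dashed line marks equal values. The open points at the left, down to -1.78, move up to between -0.32 and -0.07 under normexp, with Gpr161 at 0.02 and Dpt at -0.01, while Scyl3 stays at -0.67.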

How the data were processed

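The 6 one-colour Agilent arrays comprised 3 per strain. Per the labels, total RNA was labelled with Cy3 by a low-input kit. The deposited scanner files give each spot's intensity on a linear scale. Per the file headers, the authors' software had subtracted background and detrended the processed signal, and it set flags of 0 or 1 for spots well above background, saturated or outlying. The software is Feature Extraction 10.7.3.1 per the file headers, which also name mm9, but version 9.5.3 per the submitters' processing notes. The deposited series table holds log2 values, and 99.96% of them lay within 0.05 of the scaled scanner values after centring each probe on its median. The sources used here do not say how the authors scaled that table. Its column medians were -0.0030, -0.0041 and 0.014 for B6 and 0.0047, 0.0099 and 0.016 for B6.MRLc1.

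Control spots and outlier spots were dropped, processed signals were scaled to the array's 75th percentile, log2 was taken and spots of a probe were averaged. A probe was tested if 4 or more arrays gave a value and if, on 3 or more, over 0.5 of its spots were well above background, which kept 36626 of 55681 probes. All were fitted in limma 3.58.1 under R 4.3.3 (lmFit, eBayes) and adjusted by Benjamini-Hochberg over all of them. The procedure was tested on simulated data. A gene was called lower or higher when at least 1 tested probe passed at 0.05 and none passed the other way. Every tested member gene was named, apart from clones and lincRNA regions given by range, and a few genes are not reported here. Gene names came from RefSeq accessions for 27229 probes, symbols or older symbols for 3586 and 565, and the file alone for 24301. Sequences are those of the array tables and of RefSeq promoters. P-values measure the spread between these arrays, whose number limits the precision. The members, gene lists and role groups were chosen with earlier results of these data known, the role groups after values were seen. Alternatives changed the background correction, scaling, filter, floor, source of values, block, variance model, weights, probes per gene, outlier spots and arrays.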

Additional observations from a re-analysis of the deposited data

How the results depend on the processing

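Scyl3 and Dnm3 kept their direction in the 18 alternatives run, and the called lincRNA probe in the 16 that tested it. The 3 genes called lower, Scyl3, Dnm3 and the reverse-strand lincRNA between Tnfsf18 and Fasl, were also those called under quantile normalization, median scaling, dim values raised to the floor, the deposited series values and outlier spots kept. The count of members called lower was 0 with no filter on dim probes, 7 with a variance trend, and 0 to 1 when each array was left out in turn. The replicate number was also the column of the slide in both strains. Deviations of arrays of the same number had correlations of -0.03, 0.14 and 0.09. For arrays of unlike number they ran from -0.14 to 0.05. The main fit did not pair the samples by number, and the part of the slide column was not tested apart from the block below. With the replicate block 0 members were called lower and 26 genes over the array. Members called higher numbered 1, Vamp4 each time, under normexp, 1 probe a gene, array weights, a variance trend, or a filter for probes well above background on all 6 arrays. Over all genes, 606 were called, against 54 with no filter, 388 with the floor, 1322 with array weights, 1250 with a variance trend, and 44 to 330 when 1 array was left out. Normexp took the call from the lincRNA (-0.07, adjusted p = 0.61, limma) and gave it to Uck2. The cause of these changes was not tested, beyond the fewer arrays of the fits that left one out. The floor of detection was higher on the B6.MRLc1 arrays, and some dim members lay near it. The part of the floor in these changes was not tested.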
